A study of Homo sapiens with 12 samples.

Results

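LAD1, 4 keratin genes (KRT7, KRT8, KRT18 and KRT80) and 5 desmosome genes (DSP, JUP, PKP2, PKP3 and DSC2) were followed across the 4 groups of an RNA sequencing experiment on A375 cells, a human line established from a melanoma. The 10 genes were taken by symbol from the table of estimated counts, which lists 56609 symbols. LAD1 was selected on its measured fall with JQ1 in these libraries, so that fall is described here without a test. The other 9 were chosen as epithelial keratins and desmosome genes, with earlier results of these data known. The groups were wild-type cells with DMSO, wild-type cells with JQ1, MAPKAPK2-knockout cells with DMSO and MAPKAPK2-knockout cells with JQ1, with 3 replicates each and 12 libraries in all. MAPKAPK2 encodes the stress kinase MK2 and was knocked out with CRISPR/Cas9. JQ1 displaces BET bromodomain proteins from acetylated chromatin; it was used at 500 nM for 48 h, and all 4 groups were cultured in the same medium with serum. Cultures without drug are titled untreated, whereas their treatment field reads DMSO. The labels do not say whether the knockout cells are 1 clone, nor whether replicates were separate cultures, so p-values measure the spread between these samples, which may be technical. The study asked how loss of MAPKAPK2 changes the response to BET inhibition.

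Keratins are intermediate filament proteins that assemble as pairs of a type I and a type II chain. KRT18 is the type I partner of KRT8 in simple epithelia, KRT7 is another type II keratin of simple epithelia, and KRT80 is a type II keratin of differentiating epithelia. Desmosomes join the filaments of neighbouring cells: desmosomal cadherins such as DSC2 span the membrane, the armadillo proteins JUP (plakoglobin), PKP2 and PKP3 (plakophilins) bind them from inside, and DSP (desmoplakin) ties this plaque to the filaments. LAD1 encodes ladinin-1, described as an anchoring filament protein of the basement membrane zone of epithelia. Melanoma derives from melanocytes, which are not epithelial and carry mostly vimentin filaments.

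The 12 libraries held 25316565 to 34594025 estimated counts, and 21698 genes passed the filter on low counts. Of the 10 genes, 9 passed it; KRT7 did not. Levels are given as CPM, counts per 1000000 counts of the library after TMM scaling, and each group value is a mean ± SD of 3 replicates. Knockout replicate 3 with JQ1 stood apart: the chi-square of its counts against its replicates, divided by the degrees of freedom, was 26.1 and 27.49, and lay between 3.35 and 7.64 in every other pair of replicates. The log2 fold change of MAPKAPK2 itself in knockout was -2.85 with DMSO and -3.02 with JQ1. Of 8 melanocytic markers, SOX10 was at 436.7 ± 7.38, MITF at 43.1 ± 1.01 and S100B at 29.3 ± 1.27 CPM in wild-type cells with DMSO. In knockout cells with DMSO MITF was lower, at 28.8 ± 2.85 CPM, and S100B higher, at 40.0 ± 2.485 CPM. Both genes passed the test between genotypes with each treatment. The pigment genes MLANA, PMEL, TYR, TYRP1 and DCT had means of at most 1.18 CPM in every group. The 8 keratinocyte markers summed to 4.07 to 7.53 CPM per library, most of it KRT10; KRT1 and IVL were at 0 in all libraries, and TP63 and KRT5 had means of at most 0.0135 CPM.

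LAD1 lies on chromosome 1 (GRCh38, 201373244 to 201399915, minus strand), 5.29 Mb from MAPKAPK2. In wild-type cells with DMSO its 3 libraries were at 8.08, 9.84 and 8.77 CPM, and with JQ1 at 0.911, 0.705 and 0.828 CPM. In knockout cells they were at 7.12, 7.52 and 7.13 CPM with DMSO and at 0.419, 0.0812 and 0.380 CPM with JQ1. All 6 libraries with JQ1 lay far below all 6 with DMSO, and the JQ1 libraries of the knockout lay below those of the wild type. LAD1 with JQ1 was at 9.16% ± 1.16 of its DMSO level in wild-type cells and at 4.04% ± 2.55 in knockout cells (SD, n = 3). The fitted log2 fold changes were -3.43 (95% interval -3.87 to -2.995) and -4.57 (-5.10 to -4.04), that is 10.8-fold and 23.7-fold lower. In the order of fitted change from the most lowered, LAD1 stood at place 67 in wild type and 36 in knockout among the 21698 genes. The fit gave a difference between genotypes of -1.14 in the log2 response, and -0.74 without knockout JQ1 replicate 2. The knockout JQ1 libraries held 11, 2 and 12 counts of LAD1, so this low end is set by few reads. In bulk RNA, fewer cells expressing a gene and less RNA per cell cannot be told apart.

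**Figure D1:**
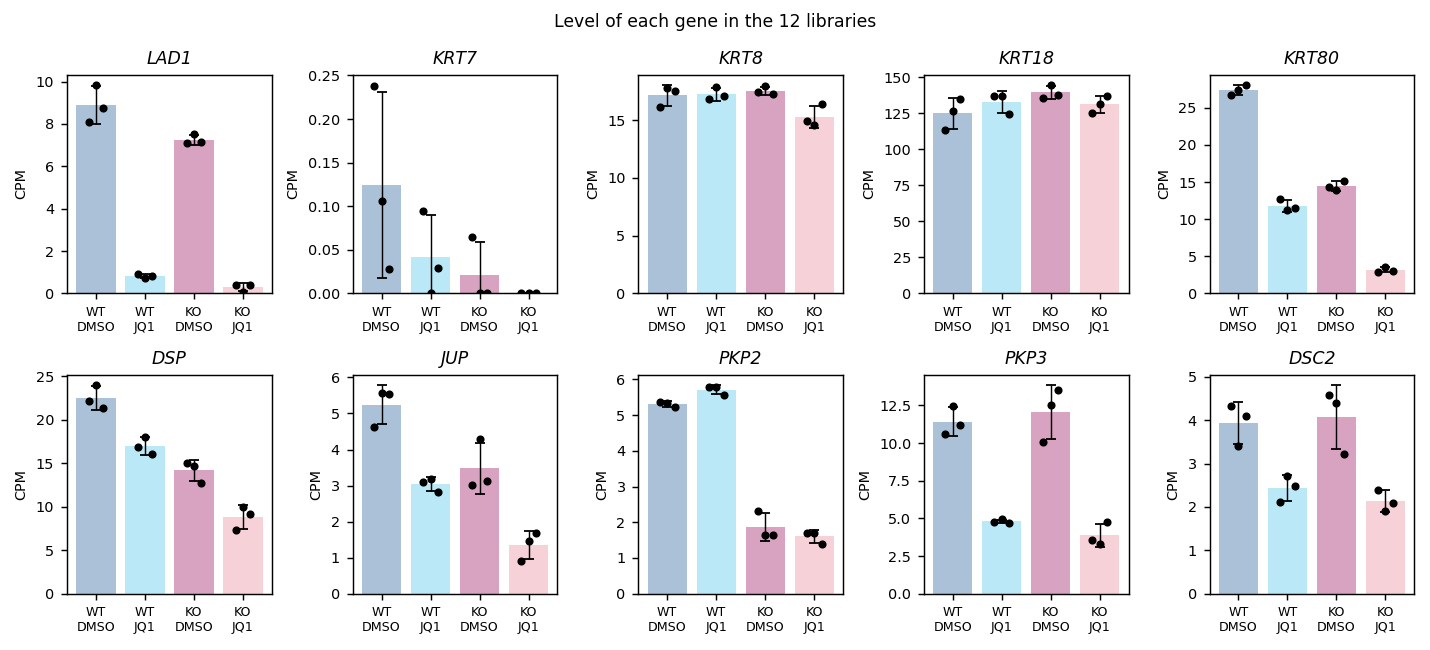
Level of each of the 10 genes in CPM by group; points are the 3 libraries, bars their mean and error bars the SD, each panel with its own axis from 0. LAD1, KRT80, DSP, JUP, PKP3 and DSC2 were lower with JQ1 in both genotypes, PKP2 was lower in knockout, and KRT8 and KRT18 passed the test in none of the 4 comparisons of groups.

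The knockout on its own was a smaller step for LAD1. With DMSO the means were 8.90 ± 0.890 CPM in wild type and 7.25 ± 0.229 CPM in knockout. The groups did not overlap, but the 95% interval of the fitted log2 fold change of -0.29 (SE 0.16) included 0 (-0.64 to 0.05). With JQ1 the means were 0.815 ± 0.104 and 0.293 ± 0.185 CPM, and the fitted change in knockout was -1.43 (SE 0.32). Both changes are descriptions without a test, since LAD1 was chosen on its fall between these DMSO and JQ1 libraries.

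Outside LAD1, 5 of 8 tested genes were lower with JQ1 in wild-type cells and the same 5 in knockout cells: KRT80, DSP, JUP, PKP3 and DSC2. Calls are by the quasi-likelihood test in edgeR with Benjamini-Hochberg adjustment, at an adjusted p under 0.05. None of the 8 was higher in edgeR, at an unadjusted p under 0.05 either, or in DESeq2. Of all genes tested, 16.2% were lower and 16.9% higher with JQ1 in wild type, and 17.8% were lower and 16.7% higher in knockout. The median log2 fold change of the 8 genes was -0.55 in wild type and -0.81 in knockout, against -0.03 and -0.00 for all tested genes. Since the 8 were chosen with earlier results of these data known, these counts and medians are descriptions. With libraries scaled by their totals only, the median of all genes moved by -0.13 and -0.12, and these 5 genes stayed called in each genotype. With that scaling KRT8 and KRT18 were called lower as well in knockout, and no gene was added in wild type.

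KRT80, on chromosome 12 (52168996 to 52192000, minus strand), changed in each of the comparisons made. Its libraries were at 26.7, 27.4 and 28.1 CPM in wild type with DMSO and at 12.8, 11.2 and 11.5 CPM with JQ1. In knockout they were at 14.3, 14.0 and 15.2 CPM with DMSO and at 2.93, 3.53 and 3.07 CPM with JQ1. The knockout with DMSO lay nearly as low as the wild type with JQ1, without overlap, and the knockout with JQ1 lay far below all other groups. JQ1 lowered KRT80 2.32-fold in wild type (log2 fold change -1.21, SE 0.08, adjusted p = 7.56e-08, edgeR) and 4.56-fold in knockout (-2.19, SE 0.10, adjusted p = 8.59e-10). The knockout lowered it 1.89-fold with DMSO (-0.92, SE 0.08, adjusted p = 4.58e-06) and 3.73-fold with JQ1 (-1.90, SE 0.10, adjusted p = 1.81e-08). With JQ1 KRT80 was at 43.1% ± 2.98 of its DMSO level in wild type and at 22.0% ± 2.16 in knockout (SD, n = 3).

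The difference between these responses was tested directly as the interaction of genotype and drug. KRT80 fell further with JQ1 in knockout than in wild type, by -0.98 on the log2 scale (SE 0.13, 95% interval -1.25 to -0.70, adjusted p = 0.00838, edgeR). It was the 1 gene called of 8 tested besides LAD1, where 0.101% of all tested genes were called in this direction; in the other direction 0.0323% were, and no gene of the 8, also at an unadjusted p under 0.05 or in DESeq2. Over the 18 alternative analyses the KRT80 interaction ran from -1.05 to -0.92 and its adjusted p from 4.1e-07 to 0.044. It was -0.95 (adjusted p = 0.00697) without knockout JQ1 replicate 3. The fitted interaction was negative for all 8 genes, with a median of -0.31 against -0.0061 for all tested genes. The 8 values rest on the same libraries, so their shared sign is not counted as separate support. For the 7 others the interaction did not pass edgeR's test: DSP gave -0.28 (adjusted p = 0.66), JUP -0.56 (0.618), PKP3 -0.38 (0.647), PKP2 -0.34 (0.702) and DSC2 -0.23 (0.853).

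**Figure D2:**
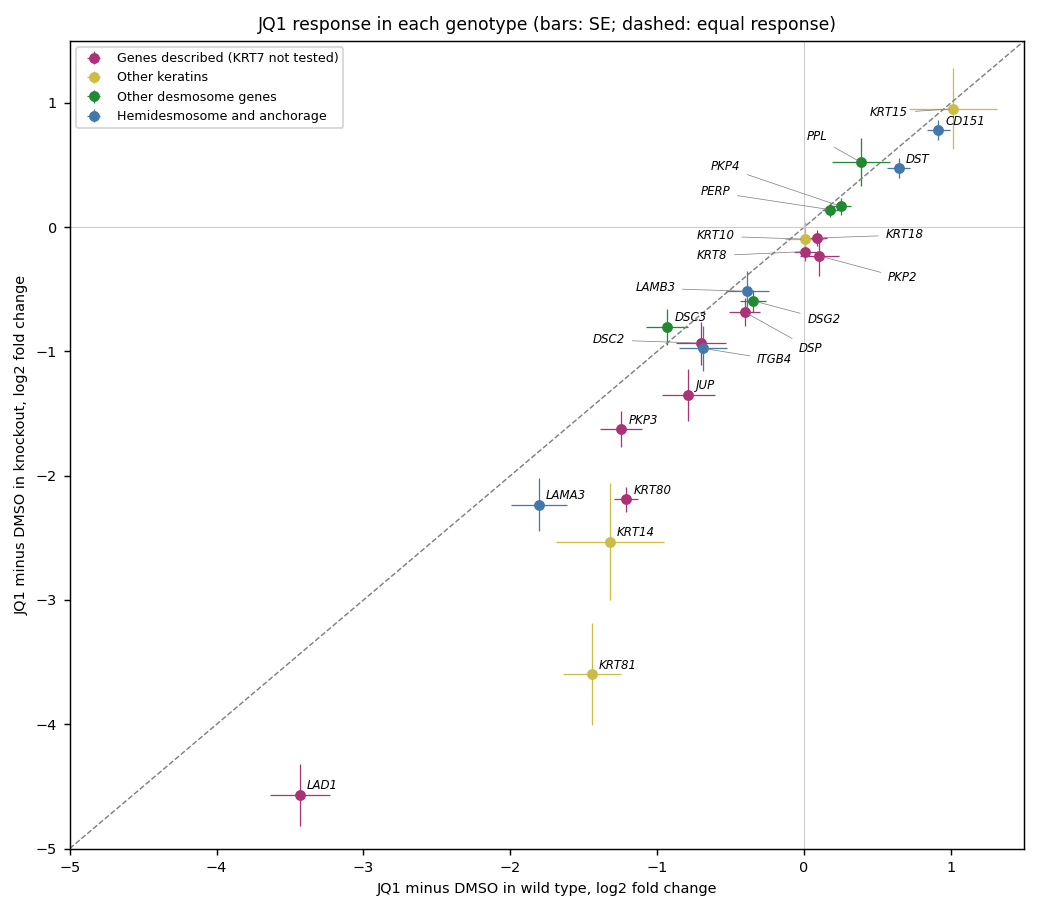
Fitted JQ1 response (log2 fold change) in knockout against that in wild type for LAD1, the other genes described and the related genes named in the text; bars are SEs and the dashed line marks equal responses. KRT80 (-1.21 and -2.19), KRT81 (-1.44 and -3.60) and LAD1 (-3.43 and -4.57) lie below the line, KRT8 and KRT18 near the origin. The difference passed edgeR's test for KRT80, did not pass for KRT81 (adjusted p = 0.171) and was not tested for LAD1.

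The simple-epithelial pair did not follow KRT80. KRT18 (chromosome 12, 52948871 to 52952901, plus strand) was at 125.1 ± 10.8 CPM in wild type with DMSO, 132.9 ± 7.43 with JQ1, 139.6 ± 4.61 in knockout with DMSO and 131.4 ± 5.96 with JQ1. Its libraries ranged from 113.5 to 144.8 CPM and the JQ1 and DMSO libraries overlapped in both genotypes. JQ1 gave log2 fold changes of 0.09 (95% interval -0.06 to 0.23, adjusted p = 0.365) in wild type and -0.09 (-0.23 to 0.06, adjusted p = 0.363) in knockout by edgeR; with library totals only, the former turned to -0.04 and the latter to -0.20, which was called (adjusted p = 0.0255). With DMSO all knockout libraries lay above all wild-type ones, but the change of 0.16 did not pass (adjusted p = 0.208).

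KRT8 (chromosome 12, 52897187 to 52949954, minus strand) was at 17.1 ± 0.894, 17.2 ± 0.549, 17.5 ± 0.357 and 15.3 ± 0.960 CPM in the same order of groups. The knockout JQ1 libraries, at 14.9, 14.6 and 16.4 CPM, were the lowest on average and did not overlap with the knockout DMSO libraries at 17.4, 17.9 and 17.2 CPM. That log2 fold change of -0.20 (95% interval -0.36 to -0.03) missed the threshold in edgeR (adjusted p = 0.062); it passed without knockout JQ1 replicate 3 (-0.25, adjusted p = 0.0236) and with library totals only (-0.31, adjusted p = 0.00409). In wild type the change was 0.01 (-0.15 to 0.17, adjusted p = 0.953). The count of KRT18 was 7.29 ± 0.368 times that of KRT8 in wild type with DMSO, 7.71 ± 0.427 with JQ1, 7.97 ± 0.139 in knockout with DMSO and 8.61 ± 0.369 with JQ1 (SD, n = 3).

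The table lists 50 KRT8 pseudogenes, 31 with a count, and their summed counts came to 72.4% to 92.5% of the KRT8 count in a library. KRT8P12 held 42.6% of them. The 67 KRT18 pseudogenes, 44 with a count, summed to 3.99% to 5.28% of the KRT18 count. The division of reads between KRT8 and its copies rests on the authors' counting. KRT8 and KRT18 also overlap by 1084 bases on opposite strands, and KRT80 lies within the antisense transcript LINC00592; whether counting used the strand is not given in the sources used here, although the library kit is directional.

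KRT7 (chromosome 12, 52232520 to 52252186, plus strand) was at trace level. It had 8, 3 and 1 counts in wild type with DMSO, 3, 0 and 1 with JQ1, 2, 0 and 0 in knockout with DMSO and 0 in each knockout JQ1 library. A count of 0 allows up to 3 counts per library. KRT7 did not pass the filter and was not tested.

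The desmosome genes showed 3 patterns: DSP and, in 3 of 4 comparisons, JUP passed for both JQ1 and the knockout; PKP3 and DSC2 passed for JQ1 and missed the threshold for the knockout; and PKP2 did the reverse. DSP (chromosome 6, 7541575 to 7586717, plus strand) was at 22.1, 24.0 and 21.3 CPM in wild type with DMSO and at 16.9, 18.0 and 16.0 CPM with JQ1. In knockout it was at 15.04, 14.7 and 12.8 CPM with DMSO and at 7.31, 9.98 and 9.21 CPM with JQ1. Every wild-type DMSO library lay above all others and every knockout JQ1 library below all others. With JQ1 DSP fell, the log2 fold change being -0.40 in wild type (SE 0.10, adjusted p = 0.00784, edgeR) and -0.68 in knockout (SE 0.11, adjusted p = 0.000238). The knockout lowered it by -0.66 with DMSO (SE 0.11, adjusted p = 0.000991) and -0.94 with JQ1 (SE 0.11, adjusted p = 6.71e-05).

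The 154 bases before the annotated start of DSP are shown because DSP fell with both factors and its window was the richest in GC boxes among the promoters matched (chr6:7541421-7541574, plus strand, RefSeq, GRCh38.p14). Capitals mark GC boxes, GGGCGG or CCGCCC on the other strand, neighbouring or overlapping ones running together.
DSP: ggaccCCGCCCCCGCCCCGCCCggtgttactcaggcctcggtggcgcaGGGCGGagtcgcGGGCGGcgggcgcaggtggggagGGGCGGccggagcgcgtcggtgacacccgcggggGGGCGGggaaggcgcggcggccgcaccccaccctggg
The window held 7 matches, and 42.6% of all 35116 promoter windows of 250 bases held at least 1. How many windows held as many as 7 was not counted, and a link between GC boxes and the changes was not tested. Promoter windows were matched for 5 of the 10 genes. Part of these windows is annotated exon: all 250 bases for LAD1, 233 and 188 for the JUP windows, 96 for DSP, 0 and 87 for the DSC2 windows and 0 for KRT8. No GC box was in the KRT8 window or the first JUP window, and 1 or 2 were in those of LAD1, DSC2 and the second JUP window. No window of the 5 genes held the AP-1 motif TGANTCA (6.57% of all windows did) or the TATA box TATAAA (10.7%), on either strand. The E-box CAGGTG was searched on either strand. It was found in the windows of LAD1 and DSP, the first JUP window and the second DSC2 window. The other JUP and DSC2 windows and the KRT8 window held none, and 17.5% of all windows held it.

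JUP (chromosome 17, 41754604 to 41786931, minus strand) was at 4.62, 5.56 and 5.55 CPM in wild type with DMSO and at 3.11, 3.19 and 2.81 CPM with JQ1. In knockout it was at 3.01, 4.29 and 3.12 CPM with DMSO and at 0.914, 1.46 and 1.68 CPM with JQ1. The knockout JQ1 libraries lay below all others, and knockout replicate 2 with DMSO lay nearer to the wild type than its replicates did. With JQ1 JUP fell, the log2 fold change being -0.79 in wild type (SE 0.18, adjusted p = 0.0037, edgeR) and -1.35 in knockout (SE 0.21, adjusted p = 0.000135), and the knockout lowered it by -1.15 with JQ1 (SE 0.21, adjusted p = 0.00253). With DMSO the knockout gave -0.59 (SE 0.18) and missed the threshold (adjusted p = 0.0599), which 6 of 19 alternatives passed; without knockout DMSO replicate 2 the change was -0.76 (adjusted p = 0.0314).

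PKP3 (chromosome 11, 392614 to 404908, plus strand) fell with JQ1 in both genotypes and did not pass the test for the knockout. It was at 10.6, 12.5 and 11.2 CPM in wild type with DMSO and at 4.77, 4.94 and 4.70 CPM with JQ1. In knockout it was at 10.1, 12.5 and 13.6 CPM with DMSO and at 3.54, 3.33 and 4.75 CPM with JQ1. The genotypes overlapped under each treatment, and the treatments lay far apart. The JQ1 change was -1.25 in wild type (SE 0.14, adjusted p = 9.16e-06, edgeR) and -1.63 in knockout (SE 0.15, adjusted p = 8.34e-07), while the knockout change was 0.08 with DMSO (95% interval -0.20 to 0.36, adjusted p = 0.817) and -0.30 with JQ1 (-0.63 to 0.03, adjusted p = 0.29).

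DSC2 (chromosome 18, 31058840 to 31102522, minus strand) had the same order at a lower level. Its libraries were at 4.32, 3.40 and 4.10 CPM in wild type with DMSO, 2.10, 2.71 and 2.49 with JQ1, 4.59, 4.40 and 3.23 in knockout with DMSO and 2.40, 1.91 and 2.09 with JQ1. Libraries with JQ1 lay below those with DMSO in each genotype, and the genotypes overlapped. The JQ1 change was -0.70 in wild type (SE 0.17, adjusted p = 0.00472, edgeR) and -0.93 in knockout (SE 0.17, adjusted p = 0.00066). The knockout change was 0.05 with DMSO (95% interval -0.30 to 0.39) and -0.19 with JQ1 (-0.57 to 0.20), with adjusted p = 0.921 and 0.638.

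PKP2 (chromosome 12, 32790745 to 32896840, minus strand) was lower in knockout and did not pass the test with JQ1. It was at 5.37, 5.35 and 5.22 CPM in wild type with DMSO and 5.78, 5.79 and 5.56 CPM with JQ1. In knockout it was at 2.31, 1.65 and 1.65 CPM with DMSO and 1.71, 1.70 and 1.39 CPM with JQ1. All 6 knockout libraries lay below all 6 wild-type ones. The knockout lowered PKP2 2.83-fold with DMSO (log2 fold change -1.50, SE 0.15, adjusted p = 1.04e-05, edgeR) and 3.57-fold with JQ1 (-1.84, SE 0.15, adjusted p = 1.82e-06). JQ1 gave 0.10 in wild type (95% interval -0.18 to 0.39, adjusted p = 0.593) and -0.23 in knockout (-0.58 to 0.12, adjusted p = 0.312), and the former turned to -0.02 with library totals only.

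Of the 8 tested genes besides LAD1, the knockout lowered 3 with DMSO (KRT80, DSP and PKP2), where 4.44% of all tested genes were lower, and 4 with JQ1 (these and JUP), where 5.56% were. None of the 8 was higher in either comparison by edgeR or DESeq2, where 3.47% and 3.01% of all tested genes were; KRT18 with DMSO had an unadjusted p under 0.05 in that direction. The medians of the 8 were -0.28 with DMSO and -0.62 with JQ1, against -0.00 for all tested genes in both. These counts and medians are descriptions too, given how the genes were chosen. The drug comparisons and the genotype comparisons share libraries, so their values are given side by side and not counted as separate support.

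**Figure D3:**
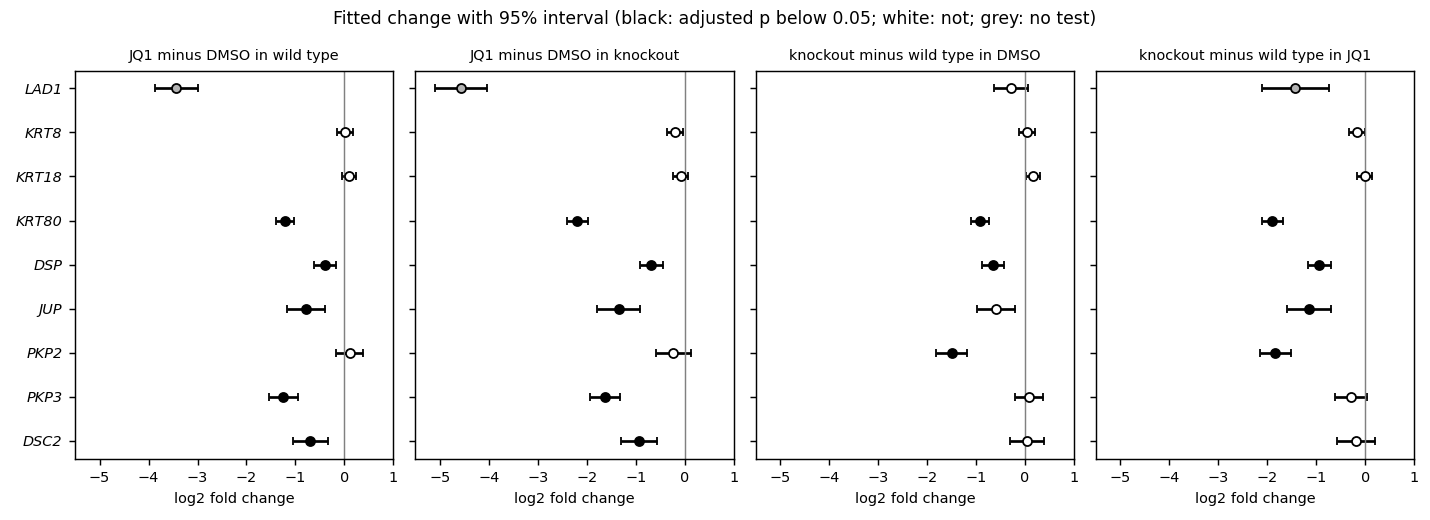
Fitted log2 fold change with its 95% interval for the 9 genes that passed the filter, in the 4 comparisons of groups. Filled black points passed an adjusted p of 0.05 (edgeR), white ones did not and grey ones were not tested. The white point of LAD1, for the knockout with DMSO, is also given as a description without a test. PKP2 is changed by genotype (-1.50 and -1.84), PKP3 (-1.25 and -1.63) and DSC2 (-0.70 and -0.93) by JQ1, and KRT80 and DSP by both.

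Levels were compared between genes as CPM per kilobase of 1 annotated transcript each. In wild-type cells with DMSO the order was KRT18 at 80.1, KRT8 at 8.06, KRT80 at 7.1, PKP3 at 4.06, LAD1 at 3.06, DSP at 2.29, JUP at 1.5, PKP2 at 1.23, DSC2 at 0.32 and KRT7 at 0.0708 CPM per kb. The libraries of neighbours in this order did not overlap. In knockout cells with JQ1 KRT18 (84.1) and KRT8 (7.18) kept their places, followed by PKP3 (1.38), DSP (0.902), KRT80 (0.824), JUP (0.386), PKP2 (0.373), DSC2 (0.173) and LAD1 (0.101). There DSP overlapped with KRT80, and JUP with PKP2. LAD1 thus moved from the fifth place to below every gene but KRT7, and KRT80 from near the level of KRT8 to about that of DSP.

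The genes whose profile over the 12 libraries was most like that of LAD1 were taken by the smallest root mean square difference of log2 CPM, each gene centred on its own mean, among the 15409 genes that averaged 1 CPM or more. KIF1A, a kinesin motor, was nearest at 0.43, with 6.54, 0.793, 6.37 and 0.396 CPM in wild-type DMSO, wild-type JQ1, knockout DMSO and knockout JQ1. MPP4 (0.56), NYNRIN (0.64), PTGES (0.64) and RASL12 (0.65) followed. None of these is a keratin or desmosome gene. Among the genes described here, KRT80 was nearest to LAD1, at 1.24 and place 132, then PKP3 at 1.37 and place 254 and JUP at 1.53 and place 437. Since LAD1 was chosen for its fall with JQ1, this likeness is a description.

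The remaining keratins give the setting for KRT80. Of 51 other keratin genes in the table, 23 were at 0 in all libraries and 8 were tested. With JQ1, 5 were lower and 1 higher in wild type, and 4 were lower and 1 higher in knockout, beside 16.2% lower and 16.9% higher, and 17.8% lower and 16.7% higher, of all tested genes. The knockout lowered 2 with each treatment, beside 4.44% with DMSO and 5.56% with JQ1. KRT81, a type II hair keratin, lies 0.094 Mb from KRT80. It was at 10.9 ± 0.156 CPM in wild type with DMSO, 4.01 ± 0.330 with JQ1, 1.51 ± 0.346 in knockout with DMSO and 0.126 ± 0.155 with JQ1, where its libraries held 8, 1 and 1 counts. All 4 differences passed edgeR's test: -1.44 (adjusted p = 5.31e-05) and -3.60 (9e-06) for JQ1 in wild type and knockout, -2.84 (1.15e-06) and -4.996 (4.97e-07) for the knockout with DMSO and with JQ1. Without knockout JQ1 replicate 1, which held the 8 counts, the JQ1 change in knockout was -5.26 and the knockout change with JQ1 -6.66. Its interaction, -2.15, did not pass (adjusted p = 0.171). KRT86 overlaps KRT81 over 5622 bases on the opposite strand, and their coding sequences are 93.1% identical (1351 of 1451 bases), so reads can be split between them.

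KRT14, the type I keratin of basal epidermis, was lower with JQ1 in wild type (-1.32, adjusted p = 0.0122) and knockout (-2.53, adjusted p = 0.000717), at levels of 1.86 ± 0.344 CPM or less; the former missed the threshold without wild-type JQ1 replicate 3 (-1.09, adjusted p = 0.0575) and with limma on the authors' signal (-1.29, adjusted p = 0.16). Its lower level in knockout with JQ1 (-1.76, adjusted p = 0.0444) was lost in 13 of 19 alternatives. KRT15 was higher with JQ1 (1.02, adjusted p = 0.017, and 0.95, adjusted p = 0.0351), calls lost in 3 and 6 of 19 alternatives. KRT10, at 4.30 to 4.61 CPM on average, passed in no comparison.

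The desmosome genes outside the 5 were mixed in direction. Of 11, 2 were at 0 in all libraries and 5 were tested; with JQ1, 2 were lower and 2 higher in wild type, and 2 lower and 1 higher in knockout, beside the same shares of all tested genes. DSG2, a desmosomal cadherin, was at 72.6 ± 1.25 CPM in wild type with DMSO; with JQ1 it fell by -0.35 (adjusted p = 0.00608) and by -0.59 in knockout (adjusted p = 9.27e-05). DSC3 fell by -0.93 (adjusted p = 0.000129) and by -0.80 (adjusted p = 0.000543), close to the change of DSC2. PKP4, a plakophilin (0.25, adjusted p = 0.00878), and PERP (0.18, adjusted p = 0.024) rose with JQ1 in wild type, and PPL, periplakin, in knockout (0.52, adjusted p = 0.047); with library totals only, none of these 3 passed. Of 19 alternatives, the call was lost in 2 for PKP4, in 8 for PERP and in 14 for PPL. DSG2 was lower in knockout with JQ1 (-0.30, adjusted p = 0.0496), a call lost in 16 of 19 alternatives.

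Genes of hemidesmosomes and of the anchorage to the basement membrane, the setting in which LAD1 was described, also moved in both directions. All 10 were tested; 3 were lower and 4 higher with JQ1 in wild type, and 4 were lower and 4 higher in knockout; of all tested genes, 16.2% and 17.8% were lower and 16.9% and 16.7% higher. LAMA3 (-1.81 and -2.23), a laminin alpha chain, fell with JQ1 in wild type and knockout, and the tetraspanin gene CD151 rose (0.92 and 0.78), with adjusted p of at most 4.99e-06. ITGB4, the integrin beta chain of hemidesmosomes, was lower with JQ1 (-0.69 and -0.98) and in knockout (-0.91 with DMSO and -1.19 with JQ1), with adjusted p of at most 0.00474. LAMB3 was lower in knockout (-1.003, adjusted p = 0.000628, and -1.13, adjusted p = 0.000355).

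Intermediate filament genes other than keratins rose or did not pass with JQ1: of 8 tested, 4 were higher and 0 lower in each genotype, beside the 16.9% and 16.7% of all tested genes given above. VIM, vimentin, rose by 0.81 in wild type (adjusted p = 2.9e-08) and by 0.63 in knockout (adjusted p = 2.65e-07). NEFL, the light neurofilament chain, rose by 1.81 and 1.85. Both kept these directions and calls in all 19 alternatives. Of 5 catenin and adherens junction genes, JQ1 raised 5 in wild type and 2 in knockout (CTNNB1 and CTNNA1), beside the same 16.9% and 16.7%. With library totals only, CDH2, CTNNA1 and VCL no longer passed in wild type, nor did CTNNB1 and CTNNA1 in knockout. In wild type the call was lost in 6 of 19 alternatives for CTNNA1 and in 4 for VCL. Of 30 epithelial junction and identity genes 15 were tested, of which 5 were lower and 3 higher with JQ1 in wild type, 3 lower and 4 higher in knockout, and, in knockout against wild type, 6 lower and 0 higher with DMSO and 2 lower and 0 higher with JQ1. The shares of all tested genes lower in these 4 comparisons were 16.2%, 17.8%, 4.44% and 5.56%. The shares higher were 16.9%, 16.7%, 3.47% and 3.01%. CDH1 was at 0 in all libraries.

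Markers of other cell types were measured beside these changes. Fibroblast markers (6 genes) summed to 22.6 to 23.3 CPM in wild type with DMSO and 14.3 to 16.9 with JQ1. In knockout they summed to 17.4 to 18.8 CPM with DMSO and 9.81 to 12.1 with JQ1. The sums had the same order of groups as KRT80 and JUP, but the single genes differed. With JQ1, LUM and PDGFRB fell and PDGFRA rose in both genotypes. Of 5 tested, 4 were lower and 1 higher in wild type, and 2 lower and 1 higher in knockout, beside the shares of all tested genes given above. Keratinocyte markers (8 genes) summed to 6.08 to 7.53, 5.56 to 5.78, 5.83 to 6.59 and 4.07 to 5.51 CPM, and melanocytic markers (8 genes) to 501 to 516, 587 to 677, 460 to 535 and 560 to 766 CPM. Endothelial markers (4 genes) summed to 9.91 to 12.5 CPM in wild type with DMSO and 12.1 to 13 with JQ1. In knockout they summed to 4.04 to 5.13 CPM with DMSO and 6.09 to 8 with JQ1. Most of these sums was KDR, with means of 9.32, 11.5, 2.92 and 5.60 CPM in the same order of groups. The means of VWF went down with JQ1, from 0.985 to 0.432 CPM in wild type and from 0.688 to 0.189 CPM in knockout. Leukocyte markers (5 genes) ran from 10.7 to 20.3 CPM over all libraries. Most of that was CD68, at 15.2 CPM in wild type with DMSO, and PTPRC had means of at most 0.202 CPM. The part of all these markers in the changes described was not tested.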

How the data were processed

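Total RNA depleted of ribosomal RNA was sequenced from directional libraries, per the labels' protocols. The authors deposited estimated counts per gene symbol, without normalization, and a second table of normalized signal, in which each deposited value is the count divided by a factor that differs by gene and library. The submitters' processing notes name Trim Galore, cutadapt, FastQC, MultiQC, kallisto and DESeq2, without roles or versions, and GRCh38.p10; the annotation used is not given in the sources used here.

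Estimated counts were rounded to whole numbers; the test had been planned for counts, rounded if estimated. Low genes were removed with filterByExpr over the 4 groups, leaving 21698 genes with 99.9% of the counts, and libraries were scaled by TMM (factors 0.926 to 1.06). The 12 libraries entered 1 quasi-likelihood fit (edgeR 4.0.16, R 4.3.3) with a term per group, tested with Benjamini-Hochberg adjustment over all tested genes at 0.05. Alternatives were median-ratio factors, library totals only (added after seeing the data), no filter, a replicate block, only the groups compared, DESeq2 1.42.0, limma 3.58.1 on log2 of the authors' signal plus 1, and each library left out. LAD1 had been planned to count in the genotype comparisons and is left out of those counts. The 10 genes and the gene lists were chosen with earlier results of these data known. All 10 genes are named; genes named from a list are among the 3 called genes per comparison of smallest adjusted p that reach 1 CPM on average in some group, beside every keratin and desmosome gene that reaches it. CDH1 and KRT86 fall outside this rule and were named after their values were seen. Positions come from GENCODE release 29 (GRCh38), by symbol. Samples sharing a replicate number did not deviate together (18 correlations, -0.115 to 0.079). Some items are not reported here.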

Additional observations from a re-analysis of the deposited data

Results flagged for a closer look

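The JQ1 response of KRT80 differed between genotypes: the fall in knockout exceeded that in wild type by -0.98 on the log2 scale, by the interaction test in edgeR (adjusted p = 0.00838). It held in the 18 alternatives run. All 3 knockout JQ1 libraries, at 2.93, 3.53 and 3.07 CPM, were lower relative to their DMSO controls than any wild-type JQ1 library was.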

How the results depend on the processing

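The 5 genes called lower with JQ1 in wild type, the 5 in knockout, the 3 lower in knockout with DMSO and KRT80 in the interaction were called in every alternative run, and so were the 4 besides LAD1 lower in knockout with JQ1. Values that changed sign were all close to 0 and none was called. With library totals only, the JQ1 change in wild type became -0.12 for KRT8, -0.0428 for KRT18, -0.0249 for PKP2 and -0.12 for KRT10, and the knockout change with DMSO became -0.0142 for KRT8, -0.0016 for DSC2 and -0.023 for KRT10. With 1 library left out, the JQ1 change in wild type ran from -0.0307 to 0.0379 for KRT8 and from -0.0424 to 0.0943 for KRT10, and in knockout from -0.21 to 0.0032 for KRT10. The knockout change with DMSO ran from -2e-04 to 0.0686 for KRT8, from -0.0076 to 0.20 for PKP3, from -0.0416 to 0.19 for DSC2 and from -0.036 to 0.12 for KRT10, and with JQ1 from -0.0623 to 0.0174 for KRT18 and from -0.20 to 0.0182 for KRT10.

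Over all genes, the number called for knockout with DMSO was 1718, 2619 with only the groups compared, and 1092 (without knockout DMSO replicate 3) to 2650 (without knockout JQ1 replicate 3) with 1 library left out. With JQ1 it was 1860, 922 with only the groups compared, and 1223 to 2331 with 1 library left out. For the interaction it was 29, 236 without the filter, 154 with DESeq2, and 8 to 88 with 1 library left out, 88 without knockout JQ1 replicate 3. The cause was not tested. With library totals only, 5368 genes were lower and 2298 higher with JQ1 in wild type (3522 and 3665 with TMM), and 5250 and 2409 in knockout (3856 and 3616).

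Deviations of samples sharing a replicate number had a median correlation of -0.004. Whether such samples were handled together was not tested. With the replicate number as a block the KRT80 interaction stayed called, the counts of called genes besides LAD1 among those described stayed at 5, 5, 3, 4 and 1, and the counts over all genes were 6789, 7136, 1487, 1569 and 21. Depth limits LAD1 and KRT81 in knockout cells with JQ1, KRT14, KRT15 and KRT7.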
